A study of Rattus norvegicus with 6 samples.

Results

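The genes described here are 36 transcripts of the p53 response and of the apoptosis machinery, measured in rat liver. They were taken from a list of gene names: a probe belonged to a gene when its RefSeq accession did. Of the 36 genes, 35 had at least 1 probe on the array (68 probes in all), 34 passed the filter on dim probes and were tested, and the whole experiment held 11235 tested genes with a name among 29326 tested features. Sesn1, a stress-induced regulator of growth signalling, was not analysed here because no probe carried one of its accessions. Pmaip1, the BH3-only protein Noxa, had 1 probe that was not well above background on any array, so it was not tested and no fold is given.

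Liver total RNA came from 6 male Sprague-Dawley (Crl:CD(SD)) rats, 5 weeks old when purchased, with 1 array per animal. Corn oil alone was given to the vehicle group (n = 3), and TBBC at 300 mg/kg/day to the treated group (n = 3). TBBC is the 4,4'-thiobis compound of 6-tert-butyl-m-cresol, a phenolic antioxidant with a sulfur bridge. The dosing time is 28 days in the series text and 9 weeks in the treatment protocol. All 3 vehicle arrays lay on 1 slide with 1 scan time and all 3 TBBC arrays on another slide with another scan time, so slide and treatment cannot be told apart in any difference below.

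p53 is a transcription factor that responds to DNA damage and other stress by raising genes that halt the cell cycle, repair DNA or start apoptosis, and Mdm2, itself a target, closes a feedback loop by marking p53 for destruction. In the mitochondrial route to apoptosis, BH3-only proteins sense stress and release Bax and Bak from the hold of pro-survival relatives such as Bcl-xL and Mcl-1. Cytochrome c then leaves the mitochondrion and, with Apaf1, activates caspase 9. In the other route, receptors such as Fas and the tumour necrosis factor receptor activate caspase 8, and in hepatocytes the cleavage of Bid joins both routes.

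Levels are log2 signal minus the array's own 75th percentile, so a level of 0 equals that percentile. Levels of different genes come from different probes and are not set against each other. A difference is the TBBC mean minus the vehicle mean on that log2 scale, its error is the moderated standard error of limma, and a gene passed when its Benjamini-Hochberg adjusted p over all 29326 features was under 0.05. Of the 34 tested genes 3 rose (Nol3, Gadd45b and Mdm2), 1 fell (Bmf) and 30 did not pass. That is 11.8% of the members, beside 3.08% of all features (1.68% higher and 1.4% lower) and 3.17% of all named genes. An unadjusted p under 0.05 was found for 14 members (41.2%) and for 23% of all features. The groups did not overlap for 13 members (8 higher and 5 lower with TBBC), which is 38.2% against 31.1% of all features. By direction, 23.5% of members were higher without overlap, beside 12.3% of all features, and 14.7% lower, beside 18.8%. The lower ones included Bcl2l11, which passed the filter on dim probes through the vehicle group alone. In whole-liver RNA, fewer cells of a type and less RNA per cell cannot be told apart.

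Promoter sequences are shown for the 3 members past the threshold that have an entry in the RefSeq promoter table (build GRCr8) and for 3 classical p53 targets whose levels are described below, Cdkn1a, Gadd45a and Aen. Each window runs from 250 bases before the start site given there to 50 bases after it, 5′ to 3′ on the gene's strand. Capitals mark matches, on either strand, to the p53 half-site (10 letters) or to the nuclear receptor half-site AGGTCA.
Mdm2: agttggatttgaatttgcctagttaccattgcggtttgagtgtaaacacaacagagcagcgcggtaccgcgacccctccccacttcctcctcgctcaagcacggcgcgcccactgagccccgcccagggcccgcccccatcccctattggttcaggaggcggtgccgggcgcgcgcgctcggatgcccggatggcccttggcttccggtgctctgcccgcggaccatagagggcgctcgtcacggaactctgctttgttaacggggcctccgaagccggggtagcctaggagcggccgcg
Gadd45b: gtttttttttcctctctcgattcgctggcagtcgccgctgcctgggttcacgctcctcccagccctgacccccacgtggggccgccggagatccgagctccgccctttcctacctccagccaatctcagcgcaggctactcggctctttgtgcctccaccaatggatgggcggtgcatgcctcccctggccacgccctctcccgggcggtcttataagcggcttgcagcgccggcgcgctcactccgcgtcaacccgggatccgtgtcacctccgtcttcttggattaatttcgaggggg
Bmf: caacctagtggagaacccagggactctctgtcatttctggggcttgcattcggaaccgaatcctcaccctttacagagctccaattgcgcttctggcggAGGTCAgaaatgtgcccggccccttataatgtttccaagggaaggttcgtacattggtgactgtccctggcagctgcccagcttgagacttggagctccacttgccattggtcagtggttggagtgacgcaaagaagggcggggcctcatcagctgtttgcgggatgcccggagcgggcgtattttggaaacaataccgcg
Cdkn1a: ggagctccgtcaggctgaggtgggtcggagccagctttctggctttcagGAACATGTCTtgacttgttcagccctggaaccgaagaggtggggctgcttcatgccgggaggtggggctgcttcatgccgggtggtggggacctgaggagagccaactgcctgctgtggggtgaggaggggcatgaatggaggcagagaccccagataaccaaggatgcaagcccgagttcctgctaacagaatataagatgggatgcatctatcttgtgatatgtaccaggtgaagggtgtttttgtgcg
Gadd45a: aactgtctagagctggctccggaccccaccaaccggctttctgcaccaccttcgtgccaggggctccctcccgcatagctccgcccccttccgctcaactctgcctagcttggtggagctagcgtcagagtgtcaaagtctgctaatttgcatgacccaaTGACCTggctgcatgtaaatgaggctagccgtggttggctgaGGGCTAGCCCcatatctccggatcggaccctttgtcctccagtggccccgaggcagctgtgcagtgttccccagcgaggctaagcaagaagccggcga
Aen: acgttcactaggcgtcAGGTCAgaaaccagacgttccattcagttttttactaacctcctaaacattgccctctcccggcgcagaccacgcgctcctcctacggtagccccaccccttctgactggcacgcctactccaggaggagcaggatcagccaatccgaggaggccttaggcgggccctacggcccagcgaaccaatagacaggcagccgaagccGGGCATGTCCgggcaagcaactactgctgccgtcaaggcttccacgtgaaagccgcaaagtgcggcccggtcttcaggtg
The windows lie at chr7:55200742-55201041, minus strand (Mdm2), chr7:9430669-9430968, minus strand (Gadd45b), chr3:125974015-125974314, minus strand (Bmf), chr20:7150682-7150981, plus strand (Cdkn1a), chr4:97486750-97487049, minus strand (Gadd45a) and chr1:142224283-142224582, plus strand (Aen).

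The windows of Cdkn1a, Gadd45a and Aen each held 1 match to the p53 half-site. It read GAACATGTCT from -201 to -192 relative to the start site in Cdkn1a, GGGCTAGCCC from -48 to -39 in Gadd45a and GGGCATGTCC from -30 to -21 in Aen. The windows of Mdm2, Gadd45b and Bmf held no such match; that of Bmf held AGGTCA from -151 to -146. No matches overlapped. Of the 26 members with an entry, 5 (19.2%) held a p53 half-site (Ccng1 and Sesn1 besides those 3), beside 7.98% of all 33469 promoter entries. AGGTCA was found in 4 members (15.4%, beside 16.2% of all entries), the AP-1 motif TGANTCA in 2 (Fas and Perp, 7.69% beside 7.33%) and the kappaB motif of 10 letters in 2 (Mcl1 and Pmaip1, 7.69% beside 4.18%). A match describes the letters of the window, and whether it bears on a difference was not tested. Sequence outside the windows was not searched. None of the 4 tested genes with a p53 half-site passed: the differences were positive for Gadd45a and Ccng1 and negative for Aen and Cdkn1a, and Cdkn1a passed with the mean of its probes, as given below.

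Of the 2 p53 feedback genes, Mdm2 rose and Ccng1 did not pass. Mdm2, the ubiquitin ligase that limits p53, had levels of 0.23, 0.50 and 0.27 on vehicle arrays 1 to 3 and 1.09, 1.03 and 0.95 on TBBC arrays 1 to 3. The groups did not overlap and the TBBC arrays lay close together. Mdm2 rose by 0.69 ± 0.12 (SE, n = 3 per group), a 1.61-fold difference with an adjusted p of 0.0388. Its weaker probe, also without overlap, differed by 0.52. The call of Mdm2 was lost when any 1 of the 6 arrays was left out (adjusted p 0.0634 without vehicle replicate 2 to 0.128 without vehicle replicate 1, difference 0.64 to 0.77), with the mean of its probes (adjusted p 0.0665) and without the filter on dim probes (adjusted p 0.103). Ccng1, the cyclin G1 that recruits a phosphatase to Mdm2, differed by 0.25 ± 0.13 and its groups overlapped.

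**Figure D1:**
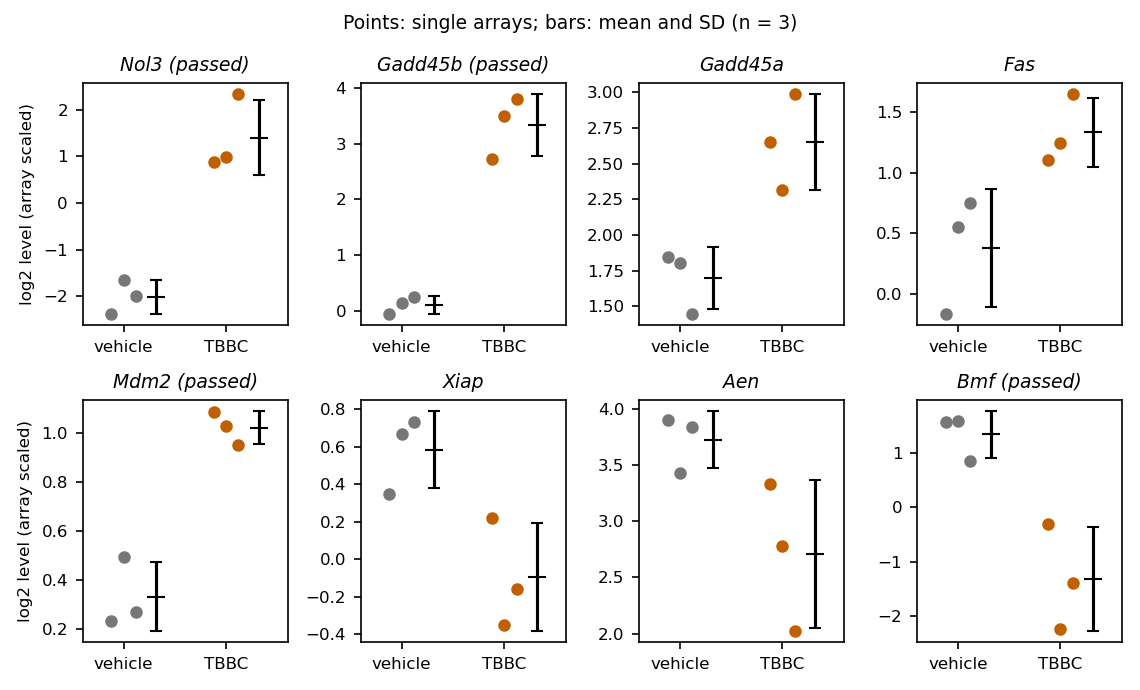
Log2 level (array scaled to its 75th percentile) on single arrays of the 8 members that passed or whose groups did not overlap at a difference of at least 0.5. Points are arrays, bars give mean and SD (n = 3), each panel has its own axis, and the 3 vehicle points lie apart from the 3 TBBC points in every panel, as the choice of genes requires.

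The 3 Gadd45 genes, small proteins that bind stress kinases and cell cycle regulators, differed among themselves, and Gadd45b alone passed. Gadd45b, which in mouse liver is known to be induced by activators of the receptor CAR and by tumour necrosis factor, had levels of -0.055, 0.14 and 0.26 on the vehicle arrays and 2.72, 3.49 and 3.79 on the TBBC arrays. Each TBBC array lay far above each vehicle array. Gadd45b rose by 3.22 ± 0.28, or 9.31-fold (adjusted p = 0.00632), and it passed in all 18 alternative settings, with differences of 2.99 to 3.53.

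Gadd45a, the member of the trio most closely tied to p53, had levels of 1.84, 1.81 and 1.45 with vehicle and 2.65, 2.31 and 2.99 with TBBC. All TBBC arrays lay above all vehicle arrays, yet the difference of 0.95 ± 0.20 (1.93-fold) did not pass (adjusted p = 0.0654). It passed with median centring, spike-in scaling, normexp or a trended, robust eBayes (adjusted p 0.0293 to 0.0464). Gadd45g, the third, had levels of 4.07, 3.61 and 2.54 with vehicle and 3.55, 0.54 and 1.83 with TBBC. These values overlapped and spread widely within each group, over 3.01 log2 units among the TBBC arrays. Its difference of -1.43 ± 0.77 did not pass (adjusted p = 0.311), and without TBBC replicate 1 or 2 the value was -2.22 or -0.72.

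Cdkn1a encodes p21, the inhibitor of cyclin-dependent kinases through which p53 halts the cell cycle, and its 3 probes gave unequal differences. Its brightest probe read 6.30, 6.39 and 6.05 on the vehicle arrays and 6.06, 5.81 and 5.82 on the TBBC arrays. The groups overlapped narrowly on this probe, and the difference of -0.35 ± 0.14 did not pass (adjusted p = 0.204). The probe A_44_P914438 read 4.12, 3.55 and 3.40 with vehicle and 1.81, 2.68 and 2.26 with TBBC, without overlap, a difference of -1.44 (adjusted p = 0.0488 when every probe was tested on its own). The remaining probe differed by -0.96 (adjusted p = 0.0503 in that fit), also without overlap. With the mean of the 3 probes the gene differed by -0.92 and passed (adjusted p = 0.0376). All 3 probes thus had a negative difference while Mdm2 and Gadd45a had positive ones. The values on each array of Cdkn1a, Gadd45g and Perp were chosen for print after they were seen.

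The other arrest and repair targets did not pass. Btg2, an antiproliferative cofactor of mRNA decay, differed by 0.38 ± 0.27, and Zmat3, an RNA-binding zinc finger protein, by 0.12 ± 0.12. Of the 8 tested genes of feedback, arrest and repair, 2 rose, 0 fell and 6 did not pass, beside 1.68% of all features higher and 1.4% lower. Their median difference was 0.31, beside -0.062 over all features and -0.019 over all named genes.

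**Figure D2:**
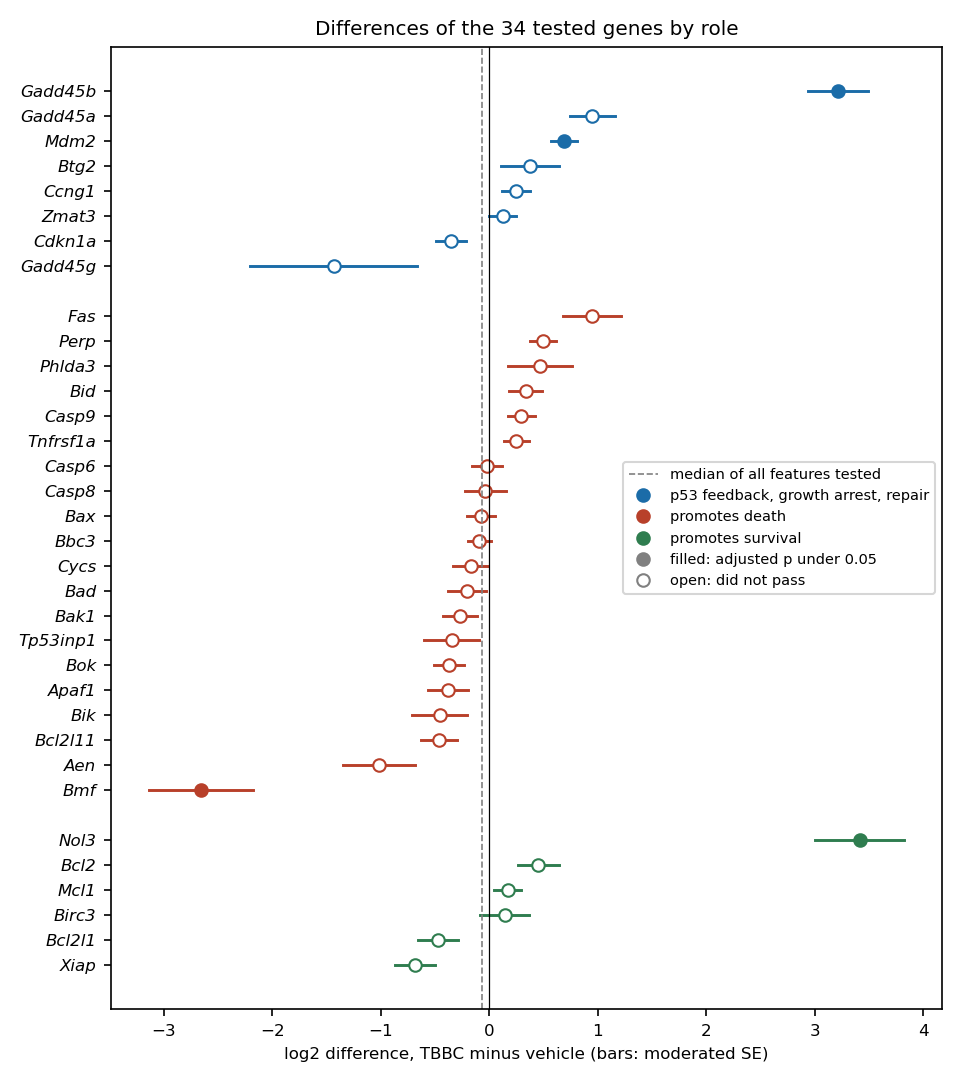
Log2 difference (TBBC minus vehicle) of the 34 tested genes with the moderated SE, by role, where filled circles passed an adjusted p of 0.05 and the dashed line is the median of all 29326 features. Gadd45b and Nol3 lie above 3, Bmf lies at -2.65, and 25 genes lie within 0.5 of 0.

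None of the 4 p53 targets that promote death passed, and 2 of them lay higher and 2 lower. Aen, an exonuclease that breaks down DNA and RNA during apoptosis, had levels of 3.91, 3.43 and 3.84 with vehicle and 3.34, 2.78 and 2.02 with TBBC. Every TBBC array lay below every vehicle array, but the TBBC arrays spread widely and the difference of -1.02 ± 0.33 did not pass (adjusted p = 0.146). Its other probes differed by -0.58 and -0.79, neither with overlap, and the second passed when every probe was tested on its own (adjusted p = 0.0291).

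Perp, a desmosomal membrane protein that p53 also uses in apoptosis, read 4.45, 4.14 and 4.27 with vehicle and 4.82, 4.76 and 4.77 with TBBC. Its groups did not overlap, and its difference of 0.50 ± 0.12 did not pass (adjusted p = 0.0826) except with a trended, robust eBayes (adjusted p = 0.0443). Phlda3, which restrains the survival kinase Akt, differed by 0.47 ± 0.29, and Tp53inp1, a cofactor of p53 in stress and autophagy, by -0.35 ± 0.25. Neither passed, and the groups of both overlapped.

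Among the Bcl2 relatives that carry out or start apoptosis, Bmf fell and no other member passed. Bmf, a BH3-only protein that sits on the cytoskeleton until stress frees it, had levels of 1.58, 1.59 and 0.85 with vehicle and -0.31, -2.23 and -1.40 with TBBC. Each TBBC array lay below each vehicle array, TBBC replicate 2 lowest. Bmf fell by 2.65 ± 0.48, so that vehicle livers held 6.30-fold more (adjusted p = 0.0437). Only 1 probe measured it. Its call was lost when any 1 array other than TBBC replicate 1 was left out (adjusted p 0.0775 without vehicle replicate 3 to 0.131 without vehicle replicate 1), with differences between -2.90 and -2.20 in those fits, and without the filter on dim probes (adjusted p 0.0994).

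The other BH3-only genes differed by less. Bcl2l11, which encodes Bim, differed by -0.46 ± 0.16 without overlap (adjusted p = 0.170), but it was well above background on only 1 of 3 TBBC arrays. It passed the filter on dim probes through the vehicle group alone, which favoured a negative difference. Bik differed by -0.46 ± 0.25, Bad by -0.21 ± 0.17 and the p53 target Bbc3, which encodes Puma, by -0.091 ± 0.11. Bid, which links death receptors to mitochondria, had the single positive difference of the 6 tested BH3-only genes, 0.34 ± 0.15. Bbc3 turned positive under median centring (0.0053) and spike-in scaling (0.11).

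The pore-forming effectors Bax, Bak1 and Bok had negative differences that did not pass. Bax differed by -0.074 ± 0.13, Bak1 by -0.27 ± 0.16 and Bok by -0.37 ± 0.14, and the sign of Bax turned with median centring (0.022), spike-in scaling (0.13) and normexp (0.060). Bok was the single member whose probes disagreed in sign: its 3 probes gave -0.37, -0.14 and 0.26.

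**Figure D3:**
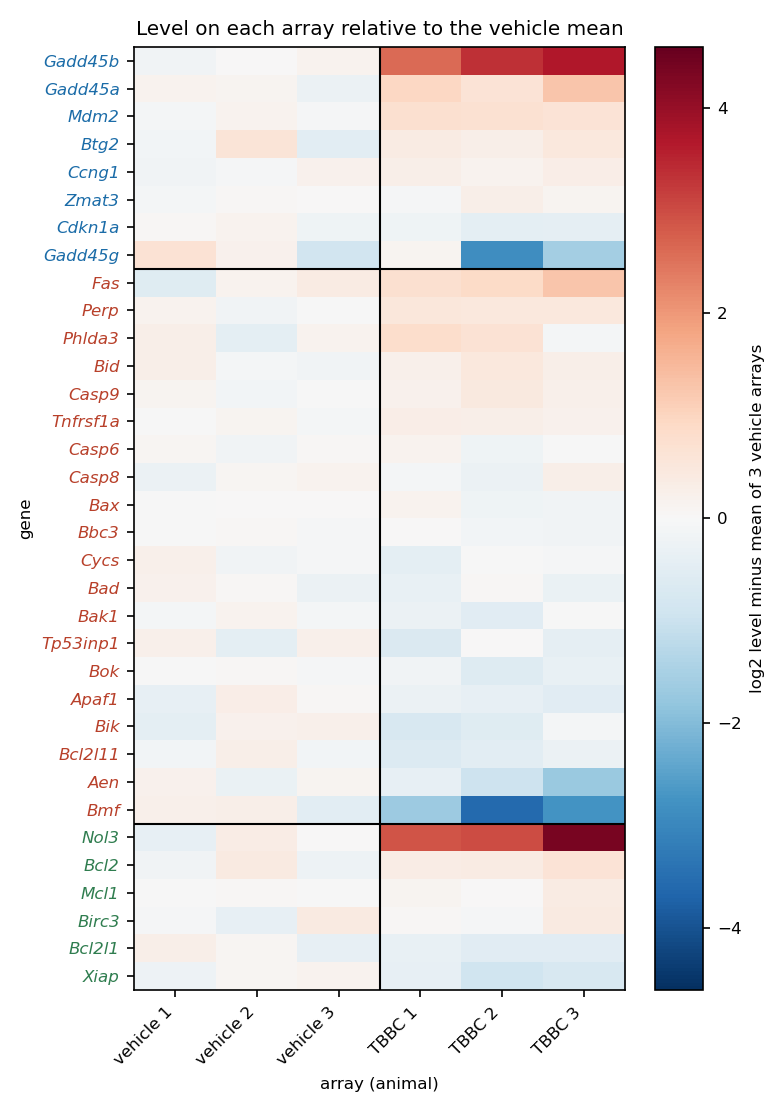
Log2 level on each array (columns) minus the mean of the 3 vehicle arrays, for the 34 tested genes (rows) grouped by role with black lines between the roles. The TBBC columns are deep red for Gadd45b and Nol3 and blue for Bmf, while Gadd45g is blue on TBBC arrays 2 and 3 and near 0 on TBBC array 1.

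The caspase and apoptosome genes differed by less than 0.5 in either direction on their brightest probes. Casp6, an executioner caspase, differed by -0.020 ± 0.14, Casp8, the initiator at death receptors, by -0.034 ± 0.19 and Casp9, the initiator at the apoptosome, by 0.30 ± 0.12. The groups of Casp9 did not overlap on its brightest probe or on the probe that differed by 0.59. They overlapped on its remaining probe, which differed by 0.48. The adaptor Apaf1 differed by -0.38 ± 0.19 and cytochrome c, Cycs, by -0.17 ± 0.17. The 5 retained probes of Cycs differed by -0.37 to -0.11, without overlap on those at -0.37. None of the 5 genes passed (adjusted p 0.218 to 0.941). Casp6 and Casp8, both near 0, changed sign in 6 and 7 of the 18 alternative settings.

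Both death receptors lay higher without passing. Fas, the receptor of Fas ligand and a p53 target, had levels of -0.16, 0.55 and 0.75 with vehicle and 1.10, 1.24 and 1.65 with TBBC. All TBBC arrays lay above all vehicle arrays, and the spread of the vehicle arrays was the wider. Its difference was 0.95 ± 0.27 (adjusted p = 0.113), and its other probes gave 0.87 without overlap and 0.17 with overlap. Tnfrsf1a, the main receptor of tumour necrosis factor, differed by 0.25 ± 0.11, again without overlap.

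Of the 20 tested pro-death genes 0 rose, 1 fell and 19 did not pass, beside 1.68% of all features higher and 1.4% lower. Of the 20, 14 had a negative difference, beside 57.6% of all features. Their median was -0.13, beside -0.062 over all features and -0.019 over all named genes. With spike-in scaling, which shifts whole arrays, the median was 0.074. Measured from the all-feature median it stood at -0.069 both as reported and with spike-in scaling, since such a shift cannot change it. When a probe had to be above background on all 6 arrays, which left out Bcl2l11, the median was -0.091.

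Among the genes that promote survival, Nol3 rose about as far as Gadd45b and the others did not pass. Nol3 encodes ARC, a repressor of apoptosis best known from heart and skeletal muscle that binds caspase 8, Bax and parts of the death receptor complex. It had levels of -2.38, -1.65 and -2.00 with vehicle and 0.88, 1.00 and 2.34 with TBBC. The groups lay far apart, with TBBC replicate 3 highest. Nol3 rose by 3.42 ± 0.41, or 10.7-fold (adjusted p = 0.0181), on its single probe. The call was lost without vehicle replicate 1, 2 or 3 or TBBC replicate 2 (adjusted p 0.0705, 0.0507, 0.0553 and 0.0624), while the difference stayed between 2.95 and 3.68 whichever array was left out.

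Xiap, which blocks effector caspases and caspase 9, lay lower with TBBC without passing. It had levels of 0.35, 0.67 and 0.73 with vehicle and 0.22, -0.35 and -0.16 with TBBC. The groups did not overlap, its 3 probes gave -0.82 to -0.68, and the difference of -0.68 ± 0.19 did not pass (adjusted p = 0.105). Birc3, an inhibitor of apoptosis induced by NF-kappaB, differed by 0.14 ± 0.23, with overlap, and its sign turned with normexp (-0.018) and without vehicle replicate 2 (-0.039).

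The pro-survival Bcl2 relatives did not pass. Bcl2l1, which encodes Bcl-xL, differed by -0.47 ± 0.19 (adjusted p = 0.200), and its 6 retained probes all had negative differences, -0.64 to -0.37. Mcl1, on which hepatocyte survival depends in mice, differed by 0.17 ± 0.13. Bcl2 differed by 0.45 ± 0.19 but was well above background on only 1 of 3 vehicle arrays. It passed the filter on dim probes through the TBBC group alone, which favoured a positive difference. Of the 6 pro-survival genes 1 rose, 0 fell and 5 did not pass, beside 1.68% of all features higher and 1.4% lower. Their median was 0.16, beside -0.062 over all features and -0.019 over all named genes. It was 0.14 when a probe had to be above background on all 6 arrays, which left out Bcl2. It was 0.041 with normexp, 0.079 without vehicle replicate 2 and 0.038 without TBBC replicate 3.

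**Figure D4:**
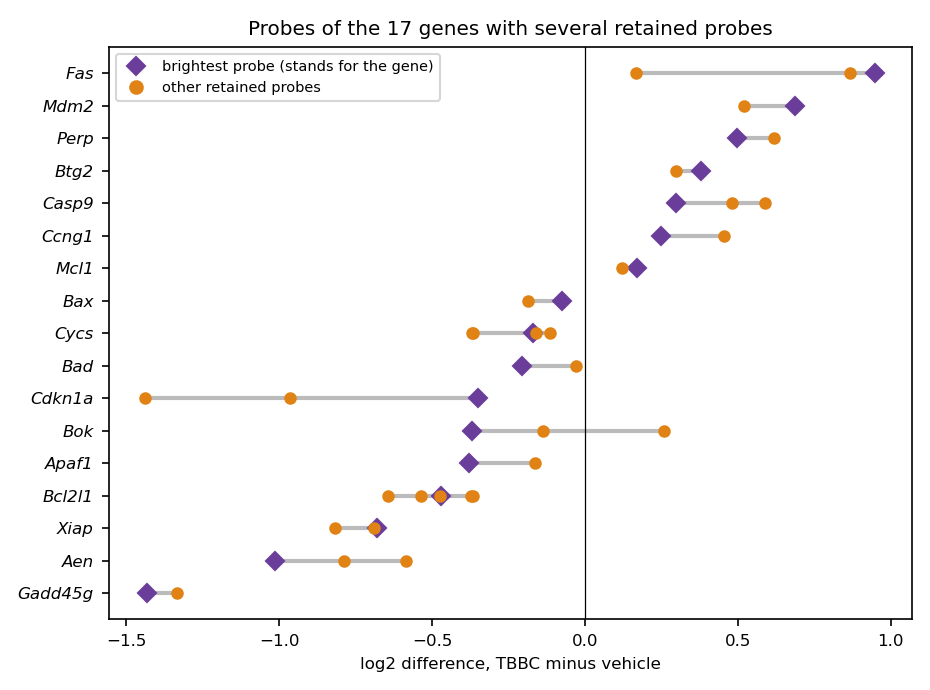
Log2 difference (TBBC minus vehicle) of each retained probe of the 17 members with several such probes. Diamonds are the brightest probes, which stand for the genes, and circles the others; Cdkn1a spans -1.44 to -0.35 and Bok alone has probes on both sides of 0.

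Other genes of the same pathways gave calls in 1 of 6 lists. Of 30 tested p53 pathway genes outside the members, 0 rose and 0 fell (median -0.14), with the abundant Igfbp3 at 0.033 ± 0.19. Of 7 tested relatives of Bcl2, 0 rose and 0 fell, with the mitophagy receptors Bnip3 at -0.063 ± 0.15 and Bnip3l at 0.35 ± 0.10. None of 13 other caspases and mitochondrial death factors passed, where Aifm1, a mitochondrial oxidoreductase that can cleave DNA indirectly, differed by -0.21 ± 0.13 and Diablo, an antagonist of Xiap, by 0.033 ± 0.10. None of 18 other genes of the death receptor pathway passed, with Faf1 at -0.15 ± 0.11 and Tnfrsf1b, the second receptor of tumour necrosis factor, at 0.27 ± 0.18. None of 15 tested cell cycle genes passed (median -0.14), with the replication clamp Pcna at -0.067 ± 0.14. In the integrated stress response, which shares targets with the p53 response, 0 of 13 rose and 3 fell, Atf5, Asns and Nupr1. Of all features 1.68% rose and 1.4% fell. Atf5, a stress-induced transcription factor, fell by 1.69 ± 0.16 (adjusted p = 0.00803), Asns, asparagine synthetase, by 1.65 ± 0.24 and Nupr1, a stress-induced chromatin protein, by 1.47 ± 0.22.

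Markers of liver cell types were read on the same arrays. Over all features, 57.6% had a negative difference, 1.68% rose and 1.4% fell. All 10 hepatocyte markers were well above background on all arrays; 1 fell (Ahsg, -0.83 ± 0.12) and 9 did not pass. Apoa1, an apolipoprotein, differed by -0.9996 ± 0.19 without overlap (adjusted p = 0.050043), and 8 of the 10 had a negative difference. Their summed signal, in multiples of the array's 75th percentile, was 5953 to 6952 with vehicle and 5175 to 5327 with TBBC. Of 11 tested T, B and NK cell markers 0 passed and 10 were lower (summed signal 4.09 to 4.57 with vehicle, 2.96 to 4.24 with TBBC), with Nkg7 at -0.29 ± 0.15 and Prf1 at -0.12 ± 0.18, both proteins of cytotoxic granules. Cd3e and Cd2 had no probe past the filters. None of 12 Kupffer and myeloid markers passed (72.0 to 132.5 and 79.8 to 145.2), with the Kupffer cell lectin Clec4f at -0.020 ± 0.37 and lysozyme, Lyz2, at 0.070 ± 0.29. Itgam had no probe past the filters. Of 11 stellate and endothelial markers 1 fell, Pdgfrb by 0.73 ± 0.14 (57.5 to 69.9 and 60.8 to 63.2). Of 5 biliary markers 1 rose, Epcam by 1.83 ± 0.21. The other biliary markers did not pass, with Krt19 at 0.44 ± 0.39 and Krt7 at -0.33 ± 0.24. The summed signal of the 5 was 1.13 to 1.30 with vehicle and 2.77 to 4.15 with TBBC. Epcam made up most of that sum on every array. None of 4 erythroid markers passed (446.9 to 775.7 and 571.5 to 729.0), with the globins Hba-a1 at 0.082 ± 0.24 and Hbb at 0.053 ± 0.21. The part of these cell types in the differences above was not tested.

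**Figure D5:**
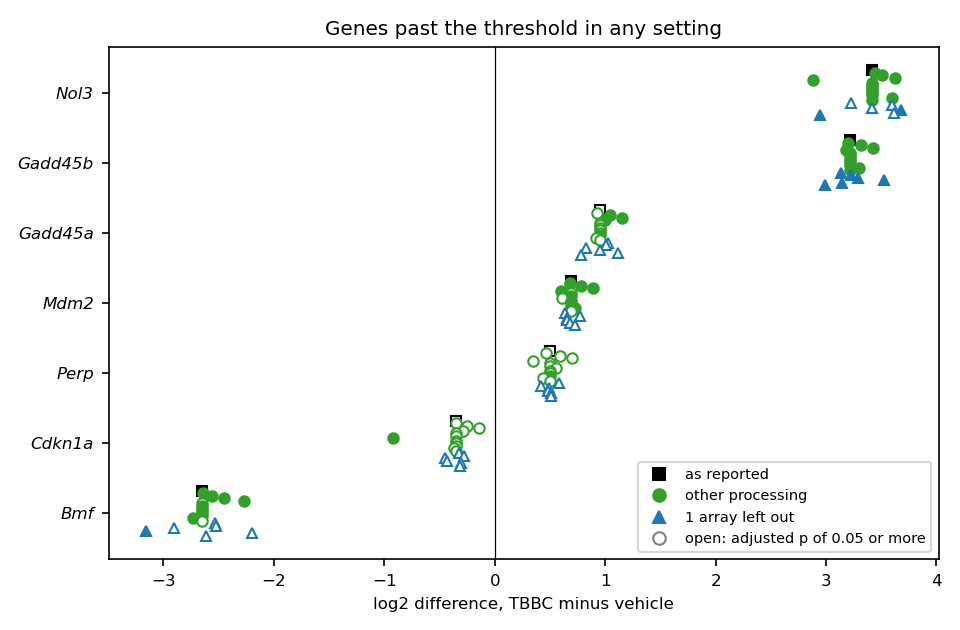
Log2 difference (TBBC minus vehicle) of the 7 members that passed in any setting, as reported (squares), under other processing (circles) and with 1 array left out (triangles), filled where the adjusted p was under 0.05. All symbols of Gadd45b are filled, those of Mdm2 are open whenever an array is left out, and no difference changes sign.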

How the data were processed

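Per the file headers, the authors scanned 1-colour Cy3 arrays and read them out with version 10.7.1.1 of Agilent Feature Extraction (10.7 per the submitters' processing notes), which writes a background-subtracted spot intensity; array design build rn4. The deposited value table held the same intensity divided by 1 constant per array (column medians 0.0972 to 0.1077, linear, not centred). Between 36919 and 39386 of 61537 probes per array were well above background, and 75th percentiles were 465.2 to 638.2. The number of arrays limits the precision.

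The processed intensity was put on the log2 scale and each array's 75th percentile subtracted. Control spots and 25 probes with outlier flags were left out, and 37222 probes remained that every array of either the vehicle or the TBBC group measured well above background. Unversioned RefSeq accessions (GRCr8 table) named 28206 probes (45.8%); a gene stood as its brightest probe. The comparison used lmFit and eBayes of limma 3.58.1 (R 4.3.3), two-sided and with no covariate. Going by the sample names, each array stood for a different rat, and all arrays of a group shared a slide and a scan time. The standard error thus reflects the spread among rats on the same slide. A difference would also contain any shift between the slides, which the p-values do not take into account. The fit was tested on simulated data.

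Members and lists were chosen with earlier results of these data known, so lists have counts and medians and no test. All members were named; every array's value was given where a member passed or did not overlap at a difference of at least 0.5, and, after their values were seen, for Cdkn1a, Gadd45g and Perp. Of other lists up to 4 genes past the threshold, or otherwise the 2 brightest, were named; 1 of these is not reported here, and Apoa1, Krt19 and Krt7 were added after their values were seen. Alternatives were 4 other scalings or background corrections, 2 other filters, 2 other uses of probes, the deposited table, 2 other fits, a replicate block and leaving out each array.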

Additional observations from a re-analysis of the deposited data

How the results depend on the processing

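Of 610 member values under 18 alternatives, 563 kept their direction and side of the threshold, 20 lost a call, 6 gained one and 21 changed sign, all of these between -0.039 and 0.19. The sign turned for Casp8 with quantile normalization (0.054), median centring (0.062), spike-in scaling (0.17) and array weights (0.078), and without vehicle replicate 2 or 3 or TBBC replicate 2 (range with 1 array left out -0.19 to 0.089). It turned for Casp6 with median centring (0.076), spike-in scaling (0.19) and normexp (0.068), and without vehicle replicate 1 or 3 or TBBC replicate 2 (range -0.11 to 0.069). It turned for Bax (0.022, 0.13 and 0.060 with median centring, spike-in scaling and normexp), Bbc3 (0.0053 and 0.11 with median centring and spike-in scaling), Cycs (0.034 with spike-in scaling) and Birc3 (-0.018 with normexp, -0.039 without vehicle replicate 2, up to 0.34 without vehicle replicate 3). The number of members past the threshold was 4, 5 with median centring, spike-in scaling or normexp, 6 with a trended, robust eBayes, 2 without a filter on dim probes (Mdm2 and Bmf lost) and 1 to 3 with 1 array left out. The number of features past it was 902, 1589 with normexp, 194 without the filter and 120 to 355 with 1 array left out, where fewer arrays were fitted. The share of calls that were higher with TBBC was 54.5%, 70.9% with median centring and 79.9% with spike-in scaling, which moved the median of all features by 0.21. With spike-in scaling the medians were 0.074 (pro-death), 0.36 (pro-survival) and 0.52 (feedback and arrest). Relative to all features they were -0.069, 0.22 and 0.37 as before, which a scaling by 1 constant per array cannot change. The pro-death median was also -0.035 with median centring, -0.18 with normexp, -0.17 without the filter and -0.091 when a probe had to be above background on each of the 6 arrays, where 32 members were tested. With 1 array left out it was -0.17 to -0.10, the feedback and arrest median was 0.24 to 0.45, and the pro-survival median 0.038 to 0.25. The replicate numbers gave no pairing (correlations of deviations 0.0035, -0.0216 and 0.1439 for numbers 1 to 3); with the replicate block 2 members (Gadd45b and Nol3) and 211 features passed, and Mdm2 and Bmf did not. The causes were not tested.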

Other observations

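Ccnd1, the cyclin that starts the cell cycle, had levels of 2.78, 3.59 and 2.26 on the vehicle arrays and 2.56, 0.62 and 1.82 on the TBBC arrays, a difference of -1.21 ± 0.54 that did not pass (adjusted p = 0.242). Both groups spread widely for Ccnd1, and their values overlapped. Trib3, a pseudokinase of the integrated stress response, differed by -1.29 ± 0.44 and Tnfrsf21, a death receptor outside the members, by 1.04 ± 0.24, neither past the threshold; the arrays of Tnfrsf21 read -2.05, -1.96 and -1.76 with vehicle and -1.43, -0.60 and -0.60 with TBBC, without overlap. Trib3 and Tnfrsf21 were picked after their values were seen.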
